A study of Homo sapiens with 4 samples.

Results

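Isolated IDR regions are ONECUT2 regions that stand far from any other region of the same list. They were chosen by the start positions of the regions in the list of irreproducible discovery rate (IDR) regions, a list that is meant to keep places ranked alike in replicate libraries. A region was counted as isolated when no other IDR region of its chromosome began within 1000000 bp of its start. Chromosomes 2, 3, 4, 5, 6, 9, 10, 11, 14, 15, 16, 20 and 22 were examined, and positions are those of hg19. On these 13 chromosomes 175 of 1993 IDR regions were isolated, which is 8.78%, out of 4297 regions in the whole list. The other 1818 regions of the same chromosomes are the set they are compared with.

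The samples were 2 ONECUT2 ChIP-seq libraries, in which cross-linked chromatin was precipitated with anti-ONECUT2 antibody and sequenced, and 2 input libraries, made from sonicated chromatin without precipitation. Both kinds came from 22Rv1 cells, an established human castration-resistant prostate carcinoma line, grown with serum and with no treatment named in the labels. Nothing in the labels says that the ChIP libraries are separate cultures, and the spread between them may be only technical. Input has no values of its own here, since each replicate list gives ChIP over input.

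ONECUT2 is a transcription factor that binds DNA through a CUT domain and a homeodomain. In development it acts in liver, pancreas and nervous tissue, and in prostate cancer it is studied as a factor of tumours that no longer depend on androgen signalling. Binding sites of such factors often lie in groups around active genes. Genes and base sequences at the regions were not analysed here, because no hg19 genome or annotation was used. The label of the regions holds by construction in the IDR list, but not in the replicate lists, as the last results show.

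The distances show how sparse the IDR list is around these regions. The nearest other IDR start lay at a median of 1.54 Mb from an isolated region, with a middle range of 1.18 to 2.19 Mb (25th to 75th percentile), and at a median of 117 kb from one of the other regions. At 55 isolated regions the nearest start was more than 2 Mb away, and at 3 it was more than 5 Mb away. Isolated regions did not always stand among crowded ones: at 70 of the 175 the nearest IDR region was itself isolated. The rule favours this, since both regions share the same wide gap, and no number for comparison was worked out. At 5 isolated regions one side held no further IDR region up to the end of the chromosome.

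The threshold of the rule falls in a continuous range of distances. Just inside it were regions of chromosome 14 (73957424 to 73958789), chromosome 6 (72129236 to 72131473) and chromosome 3 (71631854 to 71633620), whose nearest starts were 1001143, 1006859 and 1023031 bp away. Just outside it was the region on chromosome 5 from 170814385 to 170815740, at 992808 bp. The next were a pair on chromosome 6 that are each other's neighbours, from 118227654 to 118229499 and from 119214594 to 119216662, at 986940 bp.

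Chromosomes differed in how many of their regions were isolated. Chromosome 5 had the highest share of the 13, with 24 of 166 regions (14.5%), followed by chromosome 3 with 29 of 215 (13.5%), chromosome 4 with 19 of 172 (11.05%) and chromosome 6 with 23 of 210 (10.95%). Chromosome 11 had the lowest share, with 5 of 185 (2.70%), and chromosome 22 had 2 of 58 (3.45%). The remaining 7 chromosomes lay between 4.58% on chromosome 16 and 9.82% on chromosome 14. These shares come directly from the rule.

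The median width of isolated regions was near that of the others. Their median width was 1697 bp (range 417 to 5103 bp), against 1731 bp (range 357 to 6315 bp) in the other regions. The exact interval of the median, from order statistics at 95%, was 1606 to 1925 bp for isolated regions and 1690 to 1781 bp for other regions. These intervals, like the others given here, cover counting error only. The widest isolated region lay on chromosome 10 from 47140536 to 47145638. The narrowest lay on chromosome 20 from 54967467 to 54967883.

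The IDR signal, the authors' value on an unnamed scale, had a median of 200 in isolated regions (interval 190 to 210) and 189 in other regions (interval 186 to 193). The 75th percentile was 238 in isolated regions and 246 in other regions. The highest signal was 911 in an isolated region and 1470 in another region, the other set being much the larger. The 1993 regions were cut into 4 classes of equal size by signal, from class 1 (lowest) to class 4. These held 36, 41, 57 and 41 isolated regions in that order, or 20.6%, 23.4%, 32.6% and 23.4% of them. Class 3, with signals from 190 to 245, held the most. When only regions with a peak in both replicate lists were taken, the medians were 215 in isolated regions and 216 in other regions.

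Regions of the highest signal class were narrower in both sets. In class 4 the median width was 1238 bp in isolated regions and 1340 bp in other regions. In classes 1, 2 and 3 it was 1952, 1887 and 1935 bp in isolated regions and 1836, 1904 and 1962 bp in other regions, with no narrowing from class 1 to class 3 in the other regions and little in the isolated ones. No test was run on width or signal, since both come from the list that chose the regions.

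**Figure D1:**
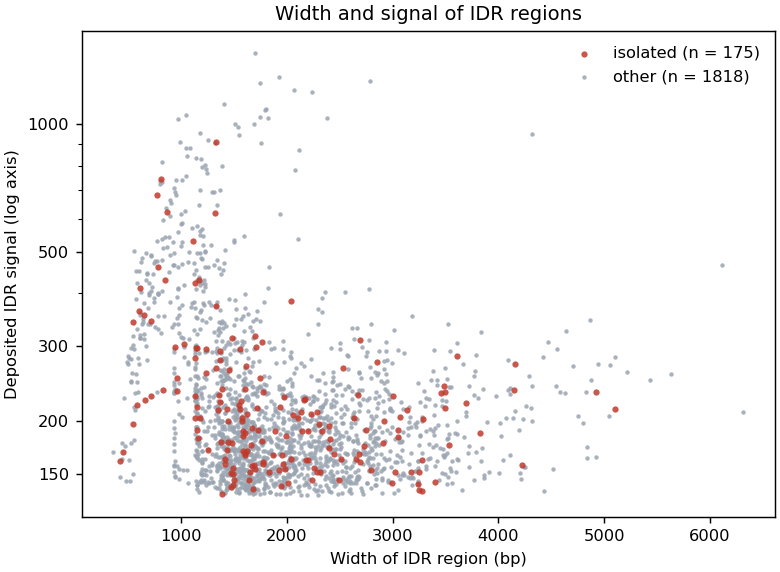
Width of each IDR region in bp (x axis) against its deposited IDR signal (y axis, log scale), with 175 isolated regions in red and 1818 other regions of the same chromosomes in grey. Isolated regions spread through the same cloud as the others up to a signal of 911, and the regions above that are all of the other set.

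Replicate peaks beneath the regions were examined next. These are the peaks that MACS2 called in each ChIP library against input, counted when they shared at least 1 bp with a region. Of the 175 isolated regions, 122 (69.7%, Clopper-Pearson interval 62.3% to 76.4%) had a peak in both lists. Of the other regions, 1175 of 1818 did (64.6%, interval 62.4% to 66.8%), and over all 1993 regions the share was 65.1%. The intervals overlap, and the difference between the sets was not tested. A peak in replicate 1 only lay under 22 isolated regions (12.6%) and 313 other regions (17.2%), and a peak in replicate 2 only under 3 isolated regions (1.71%) and 47 other regions (2.59%). No peak of either list lay under 28 isolated regions (16%, interval 10.9% to 22.3%) and 283 other regions (15.6%, interval 13.9% to 17.3%), against 15.6% of all 1993.

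Replicate support depended on signal in both sets. In class 1 of signal, 15 of 36 isolated regions (41.7%) and 193 of 463 other regions (41.7%) had a peak in both lists. In class 2 it was 21 of 41 isolated regions (51.2%) and 245 of 457 other regions (53.6%). In class 3 it was 46 of 57 isolated regions (80.7%, interval 68.1% to 90.0%) and 308 of 441 other regions (69.8%, interval 65.3% to 74.1%). In class 4 it was 40 of 41 isolated regions (97.6%) and 429 of 457 other regions (93.9%). Class 3 showed the widest difference between the sets, and there too the intervals overlap. The 1 isolated region of class 4 without a peak in both lists lay on chromosome 3 from 61545819 to 61548509, with a signal of 310 and a peak of fold 2.82 in replicate 1.

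**Figure D2:**
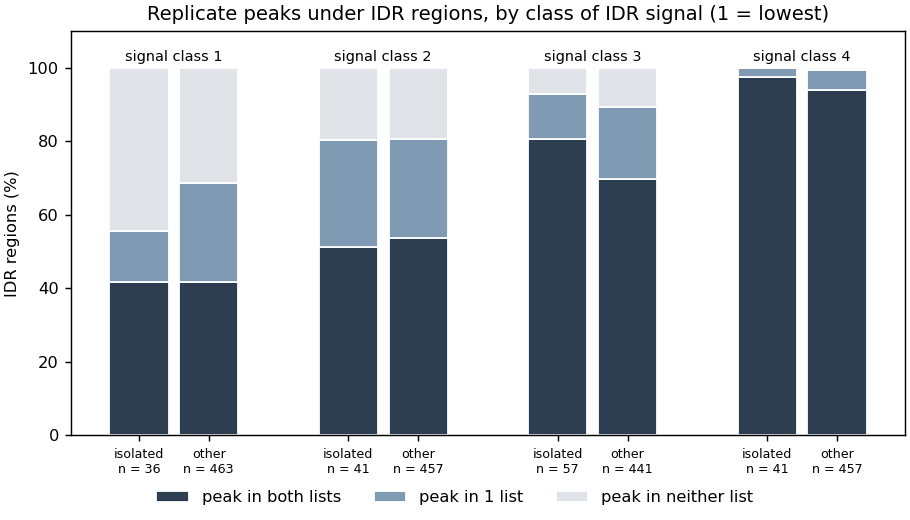
Share of IDR regions (y axis, %) with a replicate peak in both lists, in 1 list or in neither, for isolated regions (left bar of each pair) and other regions (right bar) in each class of IDR signal (1 = lowest). The dark part is 41.7% in class 1 and 97.6% in class 4 for isolated regions, and 41.7% and 93.9% for other regions.

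A single replicate peak was the most common number in both sets. In replicate 1, 105 of the 175 had 1 peak, 26 had 2 and 13 had 3 or more. In replicate 2 the numbers were 88, 27 and 10. A single peak lay under 60% of isolated and 56.7% of other regions in replicate 1. In replicate 2 the shares were 50.3% and 50.7%. The most was 5 peaks, under the region on chromosome 4 from 30718164 to 30721776 in replicate 1, where replicate 2 had 3. Regions with 2 or more peaks made up 22.3% of isolated and 25.1% of other regions in replicate 1, and 21.1% of isolated and 16.5% of other regions in replicate 2, so the order of the sets turned between the lists.

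Peaks covered anything from a small part of a region to all of it. In regions with a peak in both lists, replicate 1 peaks covered a median of 66.5% of an isolated region and 61.4% of another region, and replicate 2 peaks 52.0% and 45.8% in the same order. The highest coverage was 100% in both lists and both sets. The highest summit lay at a median of 243 bp from the centre of an isolated region in replicate 1 and 225 bp in replicate 2, against 248 and 241 bp in other regions. Summits of the 2 replicates were within 100 bp of each other in 75 of 122 isolated regions (61.5%) and 738 of 1175 other regions (62.8%).

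Fold enrichment, the authors' ratio of ChIP over input background at a summit, was modest at most isolated regions. The highest peak beneath each isolated region had a median fold of 4.23 in replicate 1 (n = 144) and 4.29 in replicate 2 (n = 125), against 3.87 (n = 1488) and 3.79 (n = 1222) in other regions. The intervals of these medians overlap in both lists. They were 3.83 to 4.91 in isolated regions and 3.75 to 4.02 in other regions for replicate 1, and 3.75 to 4.93 and 3.69 to 3.92 in the same order for replicate 2. Over regions with a peak in both lists, the median of the replicate mean was 4.63 in isolated regions (interval 4.11 to 5.29) and 4.19 in other regions (interval 4.05 to 4.35), a ratio of 1.10 with overlapping intervals.

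The fragments and the background behind the fold were recovered from fold and p-value. Fragments are the number of ChIP fragments over a summit. Over all regions with a peak, their median was 49 in isolated regions and 48 in other regions in replicate 1, and 48 in both sets in replicate 2. Over regions with a peak in both lists, the median of the replicate mean was 49.5 in isolated regions (interval 46.5 to 59.5) and 52.5 in other regions (interval 50.5 to 54.0), a ratio of 0.943 with overlapping intervals. The difference in fragments between the sets was not tested. The background over the same regions had a median of 10.9 fragments in isolated regions and 12.95 in other regions, a ratio of 0.842. In replicate 1 the interval of the median background was 9.77 to 11.8 in isolated regions and 12.5 to 13.1 in other regions. In replicate 2 it was 9.61 to 12.4 and 13.2 to 13.9 in the same order. These intervals do not overlap in either list, and no test was made. How far the background sets the difference in fold was not tested. Within single chromosomes the median fold was higher in isolated regions on 7 of 13 chromosomes in each replicate. The median background of isolated regions was lower on 8 of 13 in each. Their median number of fragments was higher on 8 and lower on 4 in replicate 1, and higher on 6 and lower on 6 in replicate 2.

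In both lists, a fold of at least 6 was reached by 35 isolated regions (20%, interval 14.3% to 26.7%) and 287 other regions (15.8%, interval 14.1% to 17.5%), against 16.2% of all 1993. A fold of 10 or more in both lists was reached by 8 isolated regions (4.57%, interval 1.99% to 8.81%) and 94 other regions (5.17%, interval 4.20% to 6.29%), against 5.12% of all. Both shares in isolated regions were near the share over all regions.

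Most isolated regions were higher in replicate 1. Fold was higher in replicate 1 at 87 of 122 isolated regions (71.3%, interval 62.4% to 79.1%) and at 926 of 1175 other regions (78.8%, interval 76.4% to 81.1%). On the log2 scale the difference of replicate 1 minus replicate 2 had a median of 0.20 in isolated regions and 0.25 in other regions. The SD of fold over the 2 replicates had a median of 0.618 in isolated regions and 0.633 in other regions.

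**Figure D3:**
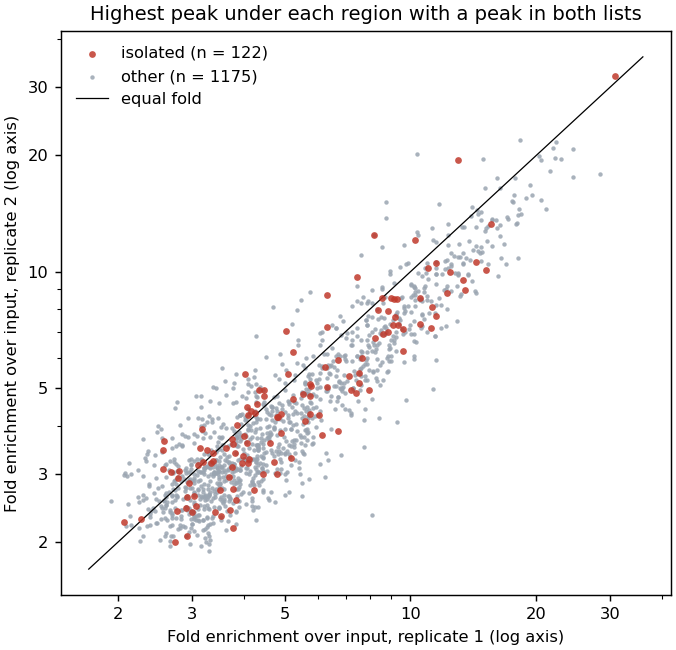
Fold enrichment over input of the highest peak under each region in replicate 1 (x axis) and replicate 2 (y axis), both on log axes, for 122 isolated regions (red) and 1175 other regions (grey) with a peak in both lists. Most points lie below the line of equal fold, and the point at the upper right, with 30.8 and 32.2, is an isolated region on chromosome 4.

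The single isolated region of highest fold was also the highest of both replicate lists. It lay on chromosome 4 from 34923531 to 34924638 and had a fold enrichment of 30.8 in replicate 1 and 32.2 in replicate 2, with 175 fragments over a background of 4.71 and 200 over 5.25. These backgrounds are close to the lowest of each list, 4.37 in replicate 1 and 4.87 in replicate 2. The isolated regions of highest and second highest signal, described below, had more fragments in both lists. The peak ranked 1 by fold in each list, yet the region ranked only 81 by IDR signal among the 1993, with a signal of 532. Its nearest IDR neighbour was 2.32 Mb away on one side and 4.21 Mb on the other. No other peak of either list lay within 1000 kb of it, and the nearest was 1321 kb away in replicate 1 and 1320 kb in replicate 2.

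The second by mean fold, on chromosome 5 from 83426977 to 83427802, went against the general order of the replicates. It had a fold of 13.02 in replicate 1, with 89 fragments, and 19.4 in replicate 2, with 118 fragments (mean 16.2 ± 4.54, SD, n = 2). Its signal of 237 was below the 75th percentile of isolated regions. By the SD of fold this is the widest difference between replicates among the 122 isolated regions with a peak in both lists. On the log2 scale, others of the 122 differed more.

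The highest signal, 911, belonged to a region on chromosome 4 from 17812111 to 17813441. Its fold was 12.2 in replicate 1 and 8.82 in replicate 2, with 260 and 208 fragments. Its nearest neighbour, 2.13 Mb away, was the isolated region of second highest signal (743), from 15682805 to 15683608 on the same chromosome. That region had a fold of 15.6 in replicate 1 and 13.3 in replicate 2, with 261 and 236 fragments. On its far side no IDR region began for 8.77 Mb. These were thus 2 strong regions next to each other in a stretch with no other IDR region between.

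On chromosome 15, the region between 22833026 and 22833794 had a signal of 681, and its fold was 14.3 in replicate 1 and 10.6 in replicate 2. It was the first IDR region of its chromosome, with the next one 2.85 Mb away. Chromosome 20 held the next regions by signal. The one from 25604444 to 25605307 (signal 621) had a fold of 15.2 in replicate 1 and 10.1 in replicate 2, and the one from 39945467 to 39946781 (signal 620) had 12.5 and 9.96. On chromosome 9, the region from 125667241 to 125668016 (signal 461) had 9.61 and 7.10, over a high background of 19.7 and 22.0 fragments. On chromosome 3, the region from 93781498 to 93782346 (signal 430) had 13.3 and 9.52. Fold was higher in replicate 1 at 7 of the 8 isolated regions of highest signal, the exception being the region of highest fold.

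The remaining regions with a fold of 10 or more in both lists had lower signals. They are named after their values were seen. On chromosome 10, the region from 90694573 to 90695233 had a fold of 10.2 in replicate 1 and 12.1 in replicate 2. On chromosome 2, the region from 167013656 to 167014885 had 11.5 and 10.6. On chromosome 6, the region from 21468678 to 21469700 had 11.01 and 10.2. Each of the 3 had at most 70 fragments at its summit, so their fold is less precise than that of the regions of highest signal. At those of chromosomes 10 and 2 the background was also the lowest of each list, 4.37 fragments in replicate 1 and 4.87 in replicate 2.

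The 5 regions farthest from any other differed widely in strength. Distances and densities per Mb here are plain counts of hg19 positions. Assembly gaps, where no peak can be called, were not taken out, so a long distance need not be a stretch without binding. The most isolated of all lay on chromosome 2 from 136742886 to 136743596, with the nearest IDR start 5.80 Mb away on one side and 23.8 Mb away on the other. It had a signal of 344 and a fold of 9.20 in replicate 1 and 7.63 in replicate 2. The 23.8 Mb beside it held 16 replicate 1 peaks and 15 replicate 2 peaks outside the IDR list, or 0.672 and 0.630 per Mb. Over the 13 chromosomes, from the first to the last peak of each, such peaks numbered 2.86 and 2.23 per Mb. By number, this stretch was thus poor in called peaks. The highest fold within it was 6.08 in replicate 1 and 8.34 in replicate 2. That is lower than at the region itself in replicate 1 and higher in replicate 2.

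The regions next in distance lay on chromosome 3, on either side of a stretch of 9.04 Mb. The region from 79068166 to 79069930 had a fold of 2.58 in replicate 1 and 3.65 in replicate 2. The region from 88106885 to 88108569 had 3.77 and 3.59. Both were weak, with at most 40 fragments at a summit. The stretch between them held 6 and 11 peaks outside the IDR list, and among these a fold of 7.82 in replicate 1 and 6.56 in replicate 2, higher than at either region. They were followed by the region on chromosome 20 that began at 25604444, which is also among the highest by signal and by fold, with IDR starts 4.59 and 7.12 Mb away. The last of the 5 lay on chromosome 2 from 43822785 to 43824224, with IDR starts 4.45 and 10.96 Mb away and a fold of 7.52 in replicate 1 and 5.17 in replicate 2.

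The 28 isolated regions with no replicate peak were wide and of low signal. Their median width was 2702 bp and their median signal 158 (range 135 to 234), against 1551 bp and 215 in the 122 isolated regions with a peak in both lists. Among the other regions, the 283 without a peak had a median width of 2211 bp and a median signal of 160. The nearest replicate peak of either list outside IDR regions lay at a median of 128322 bp from isolated regions without a peak and 48072 bp from other regions without one. Within 10 kb there was such a peak at 4 of the 28 isolated regions (14.3%) and 66 of the 283 other regions (23.3%).

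The isolated region of highest signal with no peak lay on chromosome 5 from 110847786 to 110852712, with a width of 4927 bp and a signal of 234. The others named by the same rule were those of chromosome 15 (101833588 to 101836257, signal 230), chromosome 11 (115372468 to 115375535, signal 205) and chromosome 2 (236401930 to 236404231, signal 197). The one on chromosome 11 had no replicate peak within 1000 kb in either list. The nearest peak outside IDR regions lay 1268 kb away in replicate 1 and 1102 kb in replicate 2. The IDR list therefore has regions here that neither replicate list marks, alone or nearby.

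Weaker peaks around the regions were counted last. Only replicate peaks that overlap no IDR region were counted, up to 1000 kb from either edge, because the rule already fixes where IDR regions lie. An isolated region had a mean of 4.77 such peaks in replicate 1 and 3.79 in replicate 2, against 10.6 and 7.47 for other regions. The ratio of the means was 0.448 in replicate 1 and 0.507 in replicate 2. The medians were 4 and 3 for isolated regions and 9 and 6 for other regions. On every one of the 13 chromosomes the median for isolated regions was lower in replicate 1, and it was lower on 12 of 13 in replicate 2. The exception was chromosome 15, with a median of 5 for isolated regions and 4 for other regions. Replicate peaks and IDR regions come from the same libraries, and no test was run.

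Most isolated regions still had peaks within 1000 kb, though often not close by. The nearest such peak lay at a median of 113825 bp in replicate 1 and 154156 bp in replicate 2. For other regions these medians were 56634.5 and 87303.5 bp. It lay beyond 100 kb at 52.0% and 56.6% of isolated regions, against 34.9% and 46.5% of other regions. At least 1 such peak lay within 1000 kb of all but 15 isolated regions (8.57%, interval 4.88% to 13.7%) in replicate 1 and all but 19 (10.9%, interval 6.66% to 16.4%) in replicate 2. Among other regions, 11 (0.605%) had none in replicate 1 and 42 (2.31%) had none in replicate 2. In both lists at once, 7 isolated regions (4.00%) and 6 other regions (0.330%) had none. One flank or both were empty at 37.1% of isolated regions in replicate 1 and 50.3% in replicate 2, against 17.5% and 24.7% of other regions.

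These peaks were densest beside an isolated region and sparser farther out. In replicate 1 their density was 97.1 per Mb of flank within 1 kb of the region edge, 6.35 from 1 to 10 kb, 3.81 from 10 to 100 kb, 2.26 from 100 to 500 kb and 1.97 from 500 to 1000 kb. In replicate 2 it was 57.1, 5.40, 3.33, 1.74 and 1.58 per Mb over the same distances. The densities within 1 kb rest on 34 peaks at 28 regions in replicate 1 and 20 peaks at 14 regions in replicate 2, and those from 1 to 10 kb on 20 and 17 peaks. Beyond 100 kb the density was below the mean of the 13 chromosomes, and within 100 kb it was above it, in both lists.

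Other regions had a similar density of peaks at their edge and a higher one farther out. Within 1 kb they had 74.0 per Mb in replicate 1 and 63.0 in replicate 2, so isolated regions were higher in replicate 1 and lower in replicate 2. From 1 to 10 kb they had 12.5 and 8.98 per Mb, and from 500 to 1000 kb 4.56 and 3.19. From 1 kb outwards isolated regions had the lower density at each distance in each list.

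**Figure D4:**
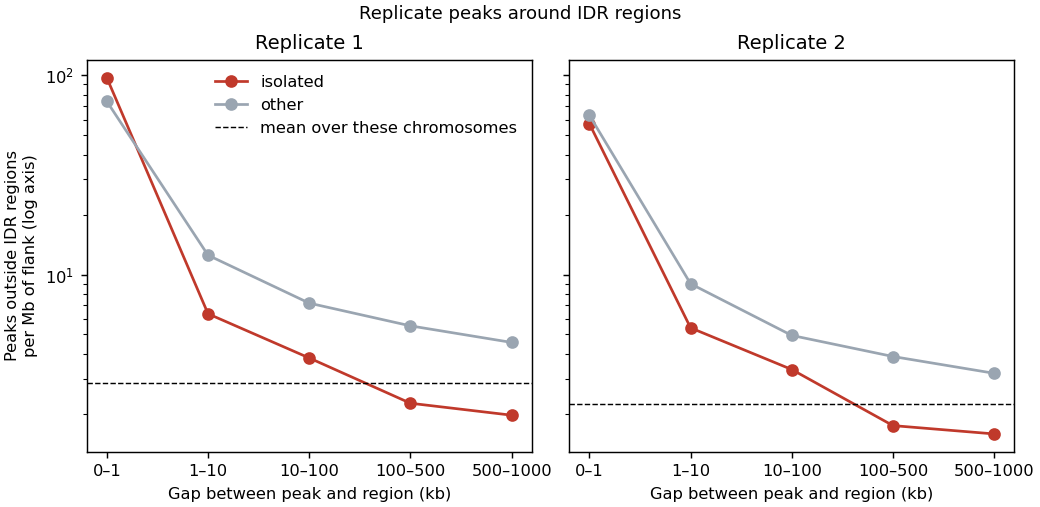
Replicate peaks outside IDR regions per Mb of flank (y axis, log scale) by their gap to the region edge (x axis, kb), around isolated regions (red) and other regions (grey) in each replicate, with the mean over the 13 chromosomes as a dashed line. Around isolated regions the density is above the mean within 100 kb and below it beyond, down to 1.97 and 1.58 per Mb.

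Most peaks around isolated regions were low. The 792 distinct replicate 1 peaks within 1000 kb of an isolated region had a median fold of 3.42, against 3.18 for the 3849 around other regions. In replicate 2 the medians were 3.51 over 624 peaks and 3.37 over 2941 peaks. A peak can lie near both kinds of region and then counts in both. A fold of 6 or more was reached by 27 (3.41%) and 25 (4.01%) of the peaks around isolated regions in replicates 1 and 2, against 67 (1.74%) and 69 (2.35%) of those around other regions. Their median background was lower around isolated regions, at 7.23 and 5.14 fragments, against 9.43 and 6.28, and its part in the fold was not tested. Of the peaks around isolated regions, 49.6% of replicate 1 peaks (interval 46.1% to 53.2%) and 61.7% of replicate 2 peaks (interval 57.8% to 65.5%) overlapped a peak of the other list. The shares around other regions were 42.3% (interval 40.8% to 43.9%) and 57.8% (interval 56.0% to 59.6%). The intervals overlap in replicate 2 and not in replicate 1, and no test was made.

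Being alone in the IDR list therefore did not mean being alone in the replicate lists. When peaks present in both replicate lists but outside the IDR list were also counted as neighbours, 41 of the 175 regions had none within 1000000 bp. Nor was the isolated region always the highest of its surroundings. Where it had a peak in both lists, this peak was compared with the peaks outside the IDR list within 1000 kb. At 56 of 122 isolated regions (45.9%, interval 36.8% to 55.2%) none of those was higher in either replicate. The same held at 456 of 1175 other regions (38.8%, interval 36.01% to 41.7%), against 39.5% of all. Peaks beneath neighbouring IDR regions were left out, and by the rule only other regions have such neighbours starting within 1000000 bp. Isolated regions had fewer peaks to be compared with. A peak of fold 6 or more outside the IDR list lay within 1000 kb of 26 isolated regions (14.9%) in replicate 1 and 25 (14.3%) in replicate 2, against 14.6% and 13.3% of other regions.

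Single regions show how much the surroundings varied. The most peaks around an isolated region were counted at 2 places, with a mean of 13.5 over the replicates. One was on chromosome 20 from 52401981 to 52403392, with 12 peaks around it in replicate 1 and 15 in replicate 2. The region's own fold was 4.06 in replicate 1 and 3.60 in replicate 2, and peaks around it reached 6.51 and 7.83. The other was on chromosome 10 from 21815167 to 21817480, with 17 and 10 peaks around it. It had no replicate peak beneath it, while the nearest peaks lay 0.646 kb from its edge in replicate 1 and 0.583 kb in replicate 2 and the highest fold around it was 5.40 and 5.81. The region on chromosome 3 from 71631854 to 71633620 followed, with 15 and 10 peaks. Its own fold was 4.83 in replicate 1 and 4.21 in replicate 2, and peaks around it reached 5.39 and 5.96. At all 3 places peaks outside the IDR list were higher than any beneath the isolated region. The places were chosen for their many surrounding peaks, and that choice favours this outcome.

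At the other end were the 7 regions with no further peak within 1000 kb in either list. By signal these were led by the region of highest fold on chromosome 4 and by one on chromosome 5 from 169010471 to 169011640, with a signal of 429 and a fold of 9.34 in replicate 1 and 7.29 in replicate 2. The third was the region on chromosome 11 without a peak of its own. Chosen after its values were seen, the narrow region on chromosome 20 that began at 54967467 had a fold of 8.53 in replicate 1 and 8.54 in replicate 2, with a signal of only 161. Regions with no peak around them thus ranged from the highest fold of both lists to none.

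**Figure D5:**
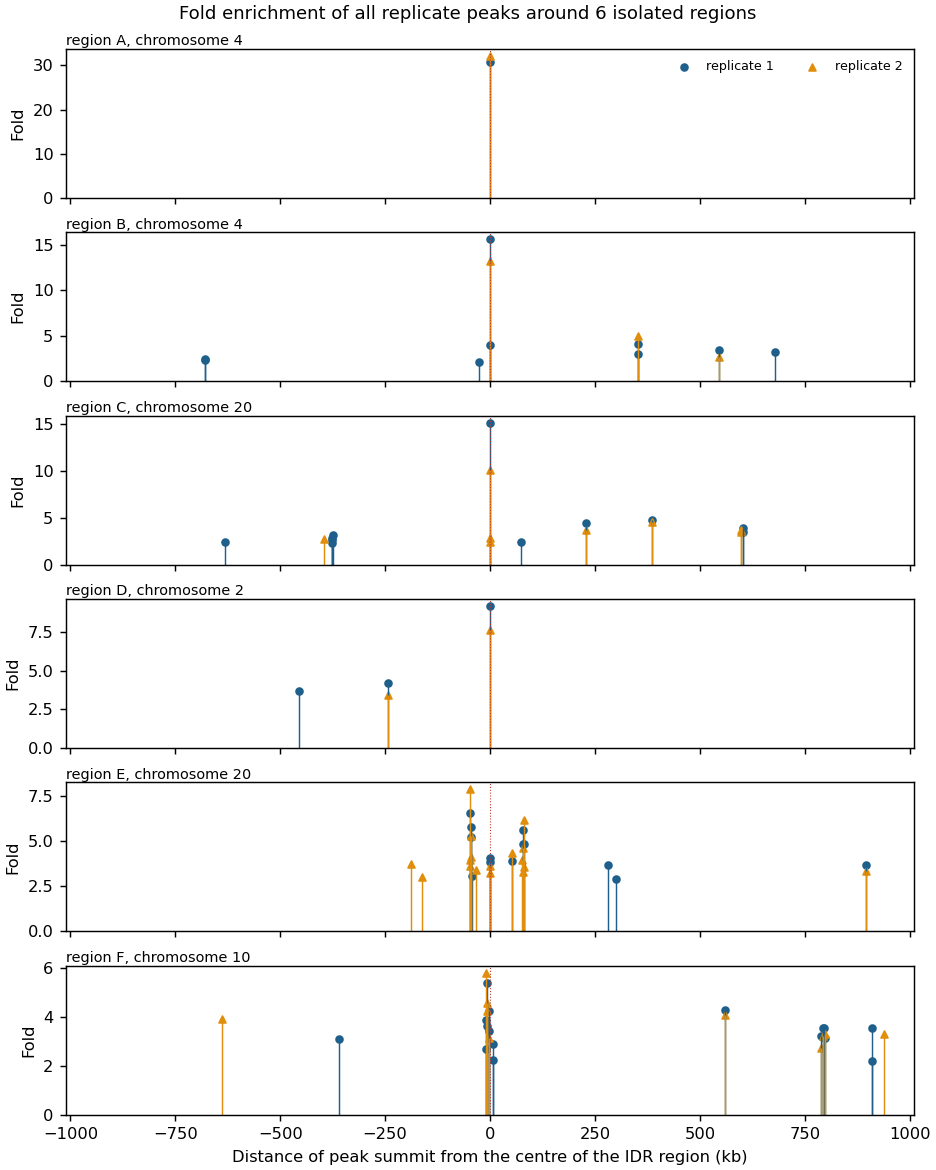
Fold enrichment (y axis) of all replicate peaks by the distance of their summit from the centre of an isolated region (x axis, kb), for 6 isolated regions; circles are replicate 1 and triangles replicate 2. Regions A and B are those of chromosome 4 with folds of 30.8 and 15.6 in replicate 1, C and E those of chromosome 20 with 15.2 and 4.06, D the most isolated region on chromosome 2, and F the region of chromosome 10 with no peak beneath it. Around A no other peak is seen, whereas E and F have peaks close by that are higher than any at their centre.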

How the data were processed

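ONECUT2 ChIP-seq was done in 22Rv1 cells, with 2 ChIP and 2 input libraries per the labels. Tools named in the submitters' processing notes are MACS2 2.1.1, BWA 0.7.13-r1126 and Picard, and the build is hg19. The 2 replicate lists hold MACS2 peaks per the file headers. Their deposited values are a fold enrichment over input, which is a ratio, and p and q values as −log10. The other list is an optimal IDR set per the file headers, with a deposited signal value of unnamed scale, and its caller is not stated there.

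Positions are hg19, counted from 1. Distances run from start to start, with assembly gaps left in. Peaks were counted as overlapping from 1 bp. Fragments and background at summits were solved from fold = (fragments + 1)/(background + 1) and a Poisson tail, with a tolerance of 0.001 on −log10 p. A whole number was found for 100% of the 14431 replicate 1 peaks and 100% of the 11990 replicate 2 peaks. The median was 34 fragments in replicate 1 and 30 in replicate 2, which limits the precision of each fold. Library depth is not given in the sources used here. On simulated data the steps recovered 100% of 132 planted isolated regions and 100% of 310 planted overlaps. With the same formulas they recovered 100% of fragments in lists of 14431 and 11990 peaks. Planted regions lay far from the distance threshold, and planted peaks lay wholly within their regions. Cases near these limits were not simulated.

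The regions and measures were chosen with earlier results of these data known. The rule and all values come from the same libraries, so no test between isolated and other regions was made. The exact intervals at 95% are those of each set and not of a difference between the sets. Regions were named by signal (8), fold (5), distance (5), signal without a peak (4), number of peaks around (3), signal with none around (3) and nearness to the threshold (3 on each side). Python 3.11.15, pandas 2.3.3, scipy 1.17.1 and matplotlib 3.10.9 were used.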

Additional observations from a re-analysis of the deposited data

How the results depend on the processing

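The alternatives without the first and last region of each chromosome, within chromosomes and without peaks within 1000 bp were chosen after seeing the data. There were 33 alternative values. The limit for a move was the result's interval or replicate SD or, for the number of isolated regions, a factor of 1.5. Of the values, 15 moved by less, 16 moved by more and 2 reversed. Causes were not tested unless stated. The number of isolated regions (175) was 380 with a distance of 500000 bp, 55 with 2000000 bp and 41 when peaks of both lists outside the IDR list counted as neighbours, by construction. The share of isolated regions with a peak in both lists (69.7%) became 23.4% with a reciprocal overlap of 50% (other regions 20.02%), 55.4% with −log10 q of at least 5 (other regions 50%), and 41.7%, 51.2%, 80.7% and 97.6% in signal classes 1 to 4. The median signal (200) was 215 among regions with a peak in both lists, and the median width (1697 bp) was 1551 bp there and 1584 bp at 2000000 bp. The ratio of median fold in isolated over other regions (1.10) ranged from 1.09 to 1.13 with one replicate left out. The 2 values counted as reversed are ratios of its parts in place of fold, 0.943 for fragments and 0.842 for background. They are not other estimates of fold, and by the formula a lower background goes with a higher fold. The ratio of peaks around (0.472) ranged from 0.448 to 0.507 with one replicate left out. It was 0.635 within 100000 bp, 0.523 for peaks found in both lists and 0.520 for peaks of −log10 q 5 or more. No paired analysis was possible because the files give input no values apart from ChIP. Replicates could not be left out of the share with a peak in both lists. Medians of 34 and 30 fragments limit the precision of fold.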
